A study of Homo sapiens with 12 samples.

Results

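This account covers the second interval of an EGF time course in HCC70 cells whose LAD1 expression had been lowered with a stably expressed short hairpin RNA (shLAD1). RNA taken after 240 min of EGF was compared with RNA taken after 40 min, over 2 libraries at each time. These 4 libraries were picked by their labels from the 12 of the series. HCC70 is a human breast carcinoma line of the basal, triple-negative kind. LAD1 encodes ladinin-1, a protein of the basement membrane zone that the series' title describes as a filamin binder. All 12 libraries came from cells kept overnight without serum. The 6 groups were shLAD1 cells and cells with a scrambled hairpin, each at 0 min (starved, no EGF) and after 40 min or 240 min with 50 ng/ml EGF. The labels name 1 LAD1 hairpin and do not say whether the numbered libraries were separate cultures, so the p-values measure the spread between these libraries and may not hold for another hairpin. No library was taken at 40 or 240 min without EGF. An effect of EGF, of elapsed time and of handling therefore cannot be told apart.

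EGF binds its receptor EGFR, a tyrosine kinase, and activates the RAS, ERK and PI3K pathways. In epithelial cells this brings on a first wave of short-lived immediate early transcripts, many of which encode transcription factors of the AP-1, EGR and NR4A families. A delayed group follows, which includes phosphatases, adaptor proteins and RNA-binding proteins that restrain the pathway or destabilize the early transcripts, and later still come genes for metabolism, adhesion and growth. The comparison of 240 with 40 min asks which of the first transcripts were lost and which others had risen by then in cells with little LAD1.

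Values below are normalized counts, which are read counts per gene divided by a size factor for each library. They are not corrected for gene length, so levels are compared between libraries and not between genes. The 4 libraries held 12915812 to 14140995 reads, within the 12428618 to 16721013 of all 12. LAD1 itself read 1091 and 865 at 0 min, 1181 and 971 at 40 min and 2535 and 2297 at 240 min in shLAD1 cells. In scramble cells it read 5925 and 6406, 5808 and 6522, and 9102 and 10194 at the same times, so that every shLAD1 library lay below every scramble library. All 12 basal epithelial markers were detected in the 4 libraries, KRT5 at 56933 to 78195, although TP63 stayed at 16.8 to 34.0 and COL17A1 at 9.005 to 33.8. Their sum was 89440 to 130497 at 40 min and 111549 to 136628 at 240 min. The 11 luminal markers summed to 68522 to 70375 and to 79506 to 85881, most of it from the keratins KRT19 (37712 to 51330) and KRT8 (11892 to 20330). The hormone receptor genes among them were low, PGR at 0 in all 4 libraries and ESR1 at 25.0 to 27.0. EPCAM read 2644 to 3552. Of 8 fibroblast markers COL1A1 alone reached 10 normalized counts, and its list summed to 706 to 898 at 40 min and 513 to 563 at 240 min. Of 8 leukocyte markers CD14 and CD68 did so, with PTPRC at 1.02 or below. The part of these other markers in the results was not tested. Libraries numbered 1 and 2 of shLAD1 cells differed in the same way at every time, for example in KRT14, a basal keratin, at 560 and 1826 at 40 min and at 520 and 1882 at 240 min. In bulk RNA, fewer cells of a kind and less RNA per cell cannot be told apart.

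Between 40 and 240 min, 1233 of 13950 genes tested rose and 1055 fell in shLAD1 cells (limma on log2 values, adjusted p under 0.05), which is 8.84% and 7.56% of the genes tested and 16.4% together. Of these, 188 were more than 2-fold higher and 252 more than 2-fold lower. With the library number as a block within each hairpin the counts were 3259 higher (23.4%) and 2959 lower (21.2%), and with 1 block term for the number over both hairpins they were 2131 and 1873. Counts of gene lists below, main or blocked, are to be read against these shares of all genes. Scaling to the total count in place of the size factors turned the split to 918 higher and 1450 lower, with the median of all genes at -0.07 on the log2 scale. Without 1 library the counts were smaller: 552 and 534 without 240 min library 2, 687 and 545 without 40 min library 2, and 770 and 675 without 40 min library 1.

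The genes of the first wave were picked by the difference between scramble libraries. No shLAD1 library entered that difference, but the spread in its test and the count filter came from all 12 libraries. The first wave was the 118 genes called higher at 40 than at 0 min in scramble cells, 0.846% of those tested. In shLAD1 cells 71 of the 118 (60.2%) fell from 40 to 240 min, against 7.56% of all genes tested, and 47 of them fell more than 2-fold. Another 8 rose (6.78%, near the 8.84% of all genes), and 39 passed the test in neither direction. The 118 had a median log2 difference of 1.43 between 0 and 40 min and of -0.78 between 40 and 240 min, where the median over all genes was 0.00. In scramble cells, whose libraries at 40 min had helped to pick them, the latter median was -0.63. At 240 min 46 of the 118 were still more than 2-fold above their 0 min level, 70 were within 2-fold of it, and ATF3 and ZNF750 were more than 2-fold below it. With the block within each hairpin 21 of them rose.

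The AP-1 and EGR transcription factors are DNA-binding proteins with members in the first wave. They had the lowest median of the gene lists, -2.24 on the log2 scale, with 9 of 14 tested lower. None rose, against 2 with the block within each hairpin or with DESeq2. EGR2, a zinc finger factor, read 5.13 and 5.09 at 0 min, 2088 and 3368 at 40 min and 30.7 and 16.0 at 240 min. The 40 and 240 min libraries were far apart, and the fall came to 6.84 ± 0.38 on the log2 scale, 114-fold, with a limma adjusted p of 5.55e-05. Each ± is the SE of the limma fit, with n = 2 libraries per time and a spread per gene estimated over all 12 libraries. FOS, the AP-1 subunit, stood at 269 and 292, then at 15049.6 and 16135, and then at 484 and 424. Its 2 libraries at each time were close together, and the fall by 5.10 ± 0.12 (34.3-fold, limma adjusted p = 9.04e-08) had the smallest SE among the 12 largest falls.

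EGR1, of the same family as EGR2, read 358 and 646 at 0 min, 31850.5 and 37098 at 40 min and 1997 and 1495 at 240 min. That was a fall by 4.31 ± 0.27 (19.9-fold, limma adjusted p = 0.000114), to a level still 1.84 log2 units above 0 min. In scramble cells EGR1 went from 30475 and 28487 to 698 and 509.9, a fall by 5.62, and the difference between the hairpins did not pass the test. FOSB, another AP-1 subunit, went from 3482 and 6082 to 72.6 and 90.0, a fall by 5.81 ± 0.34. EGR3 went from 282 and 1096 to 3.07 and 17.0, a fall by 6.02 ± 0.97, and the 2 libraries differed at both times although the times did not overlap. JUNB, which pairs with FOS proteins, went from 18863 and 27535 to 3471 and 4166, a fall by 2.58 ± 0.17.

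ATF3, a stress-induced factor of the CREB family, ended below where it had begun. It read 391 and 275 at 0 min, 3257 and 3042 at 40 min and 189 and 103 at 240 min, a fall by 4.48 ± 0.39 (limma adjusted p = 0.00043). FOSL1, which encodes the FOS-family subunit FRA1, did not come down. It read 113 and 70.2 at 0 min, 1537 and 2015 at 40 min and 2557 and 3319.8 at 240 min. Both late libraries lay above both early ones, but the log2 difference of 0.73 ± 0.30 had a limma adjusted p of 0.144, against 0.0222 with DESeq2.

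The nuclear receptors of the NR4A family and the other immediate early genes behaved as a mixed group, with 11 of 25 lower, 2 higher and a median of -0.87. The block within each hairpin gave 18 lower and 4 higher. NR4A1 went from 3892 and 6065 at 40 min to 60.4 and 119 at 240 min, which spans its 0 min values of 76.0 and 116. Its fall was 5.82 ± 0.34, or 56.6-fold. NR4A2 fell from 1637 and 1357 to 226 and 304, below its 0 min values of 440.5 and 482. IER2, a nuclear protein of the early response, fell from 13349.6 and 16577 to 3624 and 4152. MCL1, which protects cells from apoptosis and has a short-lived transcript, fell from 10854 and 12520.0 to 4925 and 5442, by 1.17 ± 0.11. The 2 members that rose were KLF4 and KLF5, and MYC, named after its values were seen, stood at 4312 and 3282 at 40 min and 3326 and 3318 at 240 min.

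**Figure D1:**
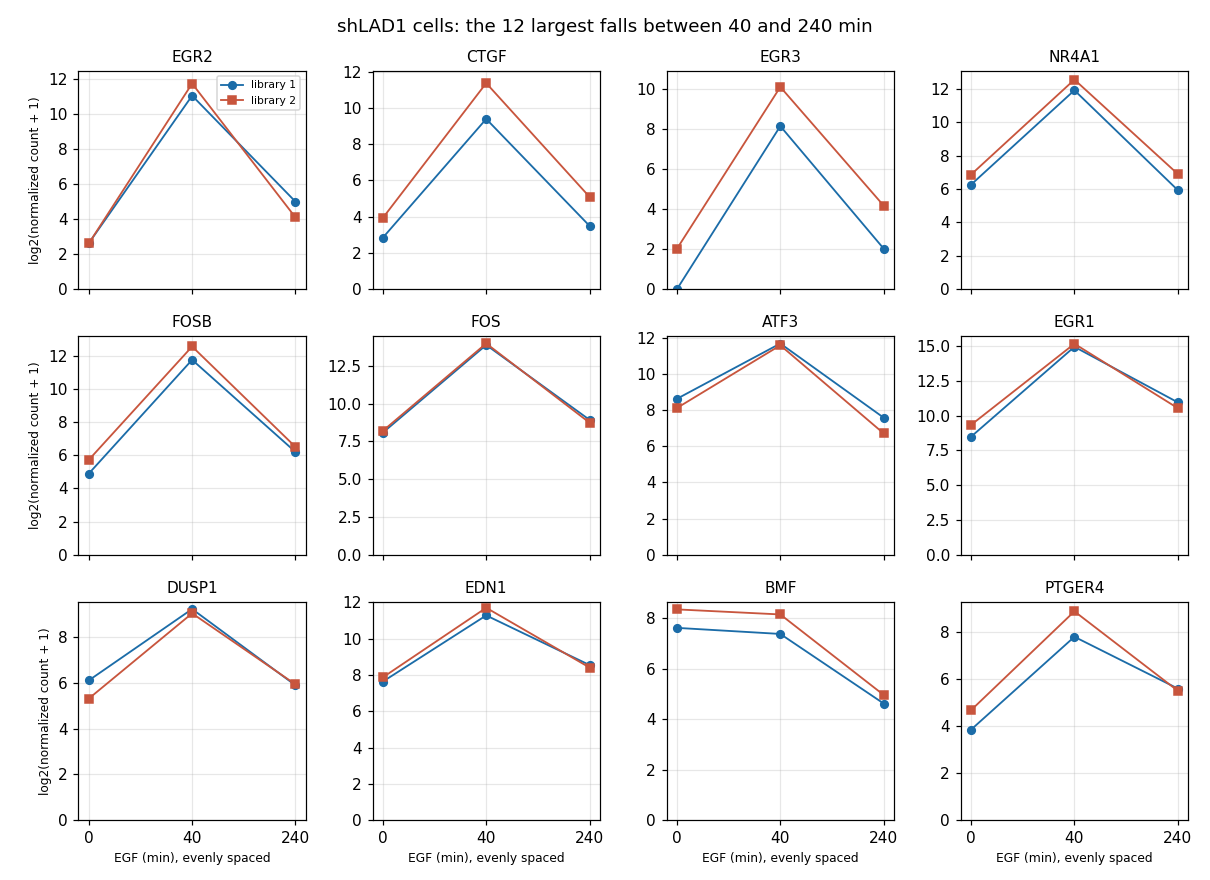
The 12 called genes with the largest falls between 40 and 240 min in shLAD1 cells (mean of at least 50 normalized counts), as log2(normalized count + 1) on the vertical axis at 0, 40 and 240 min of EGF on the horizontal axis, which is evenly spaced and not to scale in time. Each line joins the 3 libraries that share a number. In 11 panels the peak is at 40 min, and FOS falls from 15049.6 and 16135 to 484 and 424, while BMF has no peak and falls from 164 and 281 to 23.5 and 30.0.

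Early target genes with products outside the nucleus decayed as well. EDN1, the precursor of the secreted peptide endothelin-1, went from 198 and 233 at 0 min to 2489.8 and 3334 at 40 min and 373 and 339 at 240 min, a fall by 3.01 ± 0.22. PTGER4, a receptor for prostaglandin E2, went from 219 and 464 to 47.1 and 44.0, a fall by 2.78 ± 0.44. Among the targets of SRF, MRTF and YAP, 5 of 23 tested rose and 4 fell, 3 rising without 40 min library 1 or 240 min library 2, and 2 falling without 240 min library 1. The block within each hairpin gave 10 rising and 6 falling. The secreted matricellular proteins were on the falling side: CYR61 went from 4756 and 5168 to 866 and 894, a fall by 2.49 ± 0.45. CTGF went from 670.0 and 2637 to 10.2 and 33.0, a fall by 6.09 ± 1.30 with a limma adjusted p of 0.0162. Its 2 libraries differed at both times, and the call was lost without 40 min library 2 (adjusted p = 0.0973) or 240 min library 1 (0.0827). TUFT1, which encodes tuftelin, fell from 4251 and 5507 to 1264 and 1104, its 0 min level of 1206 and 1241.

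Members of the same list that rose included FHL2, VCL and CNN3. FHL2, a LIM-domain cofactor, read 296 and 299 at 0 min, 464 and 611 at 40 min and 1155 and 1262 at 240 min, a rise of 1.18 ± 0.13. VCL, the adhesion protein vinculin, read 1517 and 1557 at 40 min and 3072 and 3772 at 240 min, a rise of 1.15 ± 0.10 (limma adjusted p = 0.000331). CNN3, the actin-binding calponin 3, rose from 3368 and 2603 to 4723 and 4812, a call lost with the 6 shLAD1 libraries alone (adjusted p = 0.0528). The list thus held genes with opposite courses after 40 min, and its median of 0.23 describes neither kind.

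Promoters of 4 of these genes are shown because they hold a match to a binding word of the factors named above, in genes that moved in opposite directions. RefSeq promoter windows on GRCh38.p14 run from 250 bases before to 50 after the start site, on the gene's strand, and 87 of the 103 named genes had one. Positions count the match's first base from the start site. The part before that site is printed 5′ to 3′ in lower case with the match in capitals. EGR1 (chr5:138465229-138465478, plus strand) has 2 CArG boxes, the core of the serum response element that SRF binds, at -105 and -83. FHL2 (chr2:105438514-105438763, minus strand) has 1 CArG box at -101. DUSP1 (chr5:172771196-172771445, minus strand), described next, has the cyclic AMP response element word TGACGTCA at -125. IL1RL1 (chr2:102337007-102337256, plus strand), the largest late rise, has the AP-1 word TGANTCA at -191.
EGR1: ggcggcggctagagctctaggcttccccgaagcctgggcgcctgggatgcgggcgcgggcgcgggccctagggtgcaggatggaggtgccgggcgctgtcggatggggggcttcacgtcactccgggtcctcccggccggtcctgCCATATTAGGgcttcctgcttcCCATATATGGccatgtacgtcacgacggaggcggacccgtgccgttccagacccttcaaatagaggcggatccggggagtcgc
FHL2: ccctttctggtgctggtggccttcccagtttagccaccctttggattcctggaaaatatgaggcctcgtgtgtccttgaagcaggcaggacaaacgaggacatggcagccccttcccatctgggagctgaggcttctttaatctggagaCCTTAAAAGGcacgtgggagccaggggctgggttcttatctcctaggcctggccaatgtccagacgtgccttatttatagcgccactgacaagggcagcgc
DUSP1: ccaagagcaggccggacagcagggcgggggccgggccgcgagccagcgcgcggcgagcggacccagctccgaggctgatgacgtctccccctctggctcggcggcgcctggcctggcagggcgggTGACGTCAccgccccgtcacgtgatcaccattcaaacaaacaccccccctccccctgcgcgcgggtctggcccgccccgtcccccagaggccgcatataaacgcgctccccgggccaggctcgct
IL1RL1: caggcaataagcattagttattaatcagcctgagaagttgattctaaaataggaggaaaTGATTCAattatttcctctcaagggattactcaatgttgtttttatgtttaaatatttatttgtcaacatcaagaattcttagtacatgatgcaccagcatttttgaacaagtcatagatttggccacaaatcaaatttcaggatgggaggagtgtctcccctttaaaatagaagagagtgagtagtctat

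Among all 27305 promoters of the table, searched on both strands over the whole window, 1.29% held a CArG box, 1.98% TGACGTCA, 7.76% TGANTCA and 5.02% the EGR word GCGGGGGCG. The cyclic AMP and AP-1 words do not contain each other. Of the 188 genes more than 2-fold higher, 151 had a promoter, and of these 4 (2.65%) held a CArG box, 1 (0.662%) TGACGTCA, 22 (14.6%) TGANTCA and 13 (8.61%) GCGGGGGCG. Of the 252 more than 2-fold lower, 203 had a promoter, and 4 (1.97%) held a CArG box, 10 (4.93%) TGACGTCA, 13 (6.40%) TGANTCA and 14 (6.90%) GCGGGGGCG. Among the named genes with a promoter, 3 held a CArG box, 6 TGACGTCA, 4 TGANTCA and 8 GCGGGGGCG. Among the 10977 genes tested that had a promoter, 78.7% of all tested, the shares were 1.07%, 3.15%, 4.77% and 8.05% in the same order. The EGR share of the lower genes is thus above that of all promoters and below that of genes tested, and their AP-1 share the reverse. These shares are descriptions of letters, not of binding.

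The feedback inhibitors of ERK and EGFR split by time course. Of 25 tested, 7 fell and 8 rose between 40 and 240 min, with a median of 0.24, and 12 rose with the block within each hairpin. Falling members included nuclear phosphatases that inactivate MAP kinases. DUSP1 read 67.8 and 38.7 at 0 min, 596 and 523 at 40 min and 58.3 and 60.0 at 240 min, a fall by 3.22 ± 0.33 (limma adjusted p = 0.00054) back to its starting level. DUSP5, which acts on nuclear ERK, fell from 4498 and 6178 to 1232 and 1357, a fall by 2.03 ± 0.15, and stayed above its 458 and 387 at 0 min. DUSP2 fell from 666 and 452 to 186 and 163.

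On the rising side stood the cytoplasmic ERK phosphatase DUSP7, at 305 and 245, then 253 and 246, then 966 and 999.6. It had not risen at 40 min, and its later rise of 1.97 ± 0.12 (3.93-fold) had a limma adjusted p of 7.73e-05. SPRED2, a membrane-bound inhibitor of RAF activation named after its values were seen, went from 345 and 272 to 847 and 760.4. DUSP6, another cytoplasmic ERK phosphatase, read 78.0 and 34.6, then 525 and 259, then 699.8 and 625. Its log2 difference between 40 and 240 min was 0.84 ± 0.40 with a limma adjusted p of 0.199, and 0.0105 with the block within each hairpin. Without a single library the list's count of rises went down to 3 (without 40 min library 2) and of falls to 4 (without 40 min library 2 or 240 min library 1). The rises were 4 without either 240 min library and 5 without 40 min library 1.

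The RNA decay factors, which bind AU-rich elements or recruit the deadenylase complex and so shorten the life of early transcripts, had themselves come down in part. Of 25 tested, 9 fell and 1 rose (ZFP36L2, lost without 40 min library 2 or 240 min library 1), and the block within each hairpin gave 15 and 4. ZFP36, which encodes the AU-rich element binder tristetraprolin, read 807 and 799.9, then 5238 and 6883, then 1439 and 1726, a fall by 1.93 ± 0.14 (limma adjusted p = 0.000129). ZFP36L1, of the same family, went from 10132 and 10209.6 to 4723 and 4533, a fall by 1.14 ± 0.07 to just below its 0 min values of 5219 and 5441. ZC3H12A, an endonuclease for inflammatory transcripts, fell from 1521 and 2256 to 498 and 578. TOB1, which links to the deadenylase complex, fell from 1072 and 1477 to 418 and 379. The remaining ZFP36 family member here, ZFP36L2, went the other way, from 4656 and 4121 to 6179.9 and 5773.

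The share of the early rise left at 240 min was taken as the level at 240 min above that at 0 min, divided by the same difference at 40 min, for the 84 first-wave genes whose rise at 40 min in shLAD1 cells was over 2-fold. It is a description, since the 40 min libraries chose the 84. Under 10% was left for 24 of them, of which 11 stood below their 0 min level, 10 to 50% for 34, 50 to 100% for 12 and over 100% for 14. The median was 25.0% in shLAD1 cells and 23.3% in scramble cells. FOS had 1.13% left, EGR2 0.67%, JUNB 10.6%, DUSP5 17.7% and HBEGF 44.7%, while FOSL1 stood at 169% and DUSP6 at 181%.

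**Figure D2:**
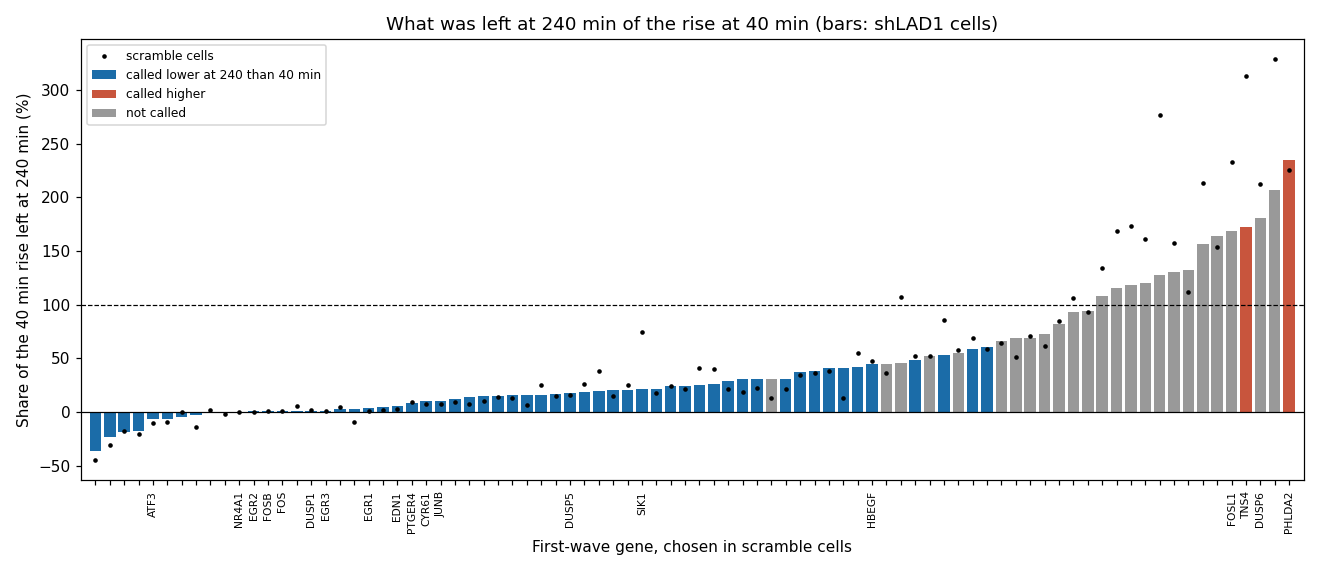
Share of the 40 min rise left at 240 min (vertical axis, %) for the 84 first-wave genes that rose over 2-fold at 40 min in shLAD1 cells, in order of that share; bars are shLAD1 cells, coloured by the call at 240 against 40 min, and black points are scramble cells. Names mark genes called higher, and those named for their rank or fixed by name. The dashed line at 100% marks no decay, with 14 bars above it and 11 bars below 0.

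Of the 8 first-wave genes that went on rising, TNFRSF12A and AEN passed 2-fold. Of these 8, 7 are named, chosen after their values were seen. TNFRSF12A, a receptor of the TNF family, read 2378 and 2420.1 at 0 min, 3646 and 4289.6 at 40 min and 10178 and 12790.1 at 240 min, a rise of 1.53 ± 0.12 (limma adjusted p = 0.0002). AEN, a nuclease linked to p53, read 137 and 153, then 251 and 277, then 689.6 and 806, a rise of 1.50 ± 0.11. Both had risen at each step in both libraries. The others were TNS4, a focal adhesion protein (0.66), PHLDA2 (0.82), ZFP36L2 (0.45), NABP1, a single-stranded DNA binder (0.62), and the protease inhibitor SERPINB8 (0.83), all as log2 differences.

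The ligands and receptors of the EGF family changed in both directions, with 2 of 11 tested higher and 3 lower, fewer of them when a library was left out, as given for each gene. The block within each hairpin gave 4 higher and 4 lower. EGFR read 2189.5 and 3058 at 40 min and 4213 and 4658 at 240 min, a rise of 0.78 ± 0.20 with a limma adjusted p of 0.0291. That call was lost without 40 min library 1 (adjusted p = 0.140), 240 min library 1 (0.0726) or 240 min library 2 (0.137), and with the 6 shLAD1 libraries alone (0.126). ERBB3, a partner of EGFR in heterodimers, fell from 3156 and 2762 to 1899 and 1511, by 0.80 ± 0.12, and ERBB2 fell from 2318 and 2566 to 1776 and 1699, by 0.49 ± 0.07. The receptors thus moved apart, EGFR up and both partners down.

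Among the ligands, TGFA rose from 572 and 637 to 868 and 829, by 0.49 ± 0.08. HBEGF read 81.1 and 53.9 at 0 min, 569.6 and 545 at 40 min and 298 and 275 at 240 min, a fall by 0.96 ± 0.21 (limma adjusted p = 0.0142). That call was lost without 40 min library 1 (adjusted p = 0.0648), 40 min library 2 (0.0588) or 240 min library 2 (0.0813), and with the 6 shLAD1 libraries alone (0.0605). AREG, which encodes amphiregulin, read 4.11 and 4.07, then 18.3 and 35.6, then 57.3 and 72.0. Its log2 difference of 1.29 ± 0.41 had a limma adjusted p of 0.0651, against 0.00773 with the block within each hairpin, 0.0333 with a pseudocount of 5 and 0.0476 with edgeR, and both 240 min libraries lay above both 40 min libraries.

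Most of the larger falls were not first-wave genes. Of the 252 genes more than 2-fold lower at 240 than at 40 min, 205 were outside the first wave, and their median log2 difference between 0 and 40 min was 0.09. In 193 of the 205 that difference was at most 2-fold, and 12, CTGF among them, were more than 2-fold higher at 40 than at 0 min. At 240 min 153 of the 205 were more than 2-fold below their 0 min level. Of the 47 that belonged to the first wave 2 were.

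Genes that FOXO factors activate, or that growth factors repress, gave 10 of these 205, and 29 of the 13950 genes tested. Repression by growth factors is part of how that list was defined, so its falls are a description and no separate result. Of 29 tested in that list 15 fell and 2 rose, with a median of -0.80, and 20 fell and 3 rose with the block within each hairpin. The falls numbered 10 without 40 min library 1 or 240 min library 2, and the rises were lost without any 1 of the 4 libraries. BMF, a BH3-only promoter of apoptosis, read 194 and 323 at 0 min, 164 and 281 at 40 min and 23.5 and 30.0 at 240 min, a fall by 2.97 ± 0.38 (limma adjusted p = 0.00128). KLHL24, a ubiquitin ligase adaptor, read 235 and 255, then 268 and 289, then 54.2 and 37.0, a fall by 2.61 ± 0.18. Both were near their 0 min values at 40 min, and at 240 min both libraries were well below all earlier ones.

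TSC22D3, the glucocorticoid-induced leucine zipper protein, fell from 3247 and 4047 to 1036 and 1038, by 1.80 ± 0.13 (limma adjusted p = 0.000114). CCNG2, a cyclin associated with growth arrest, fell from 495 and 552 to 128 and 146. TXNIP, an inhibitor of thioredoxin and glucose uptake, fell from 1993 and 2136 to 779 and 852. ERBB3 also belongs to this list.

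The targets of ATF4 and of amino acid stress fell in 11 of 25 tested, with a median of -0.31. The number was 5 without 40 min library 1, 6 without 240 min library 2 and 18 with the block within each hairpin. CHAC1, which breaks down glutathione, read 273 and 242, then 355 and 361, then 89.0 and 57.0, a fall by 2.31 ± 0.21. SESN2, a leucine sensor that restrains mTORC1, fell from 816 and 707 to 231 and 204, by 1.80 ± 0.16. HERPUD1, of the degradation pathway of the endoplasmic reticulum, fell from 1568 and 1725 to 499 and 385, by 1.90 ± 0.12. Of the biosynthetic members, named after their values were seen, PSAT1 was called at -0.33, while ASNS (-0.31), PHGDH (-0.23) and ATF4 itself (-0.27) were not called. PPP1R15A, which reverses the stress block on translation, belonged to the first wave and fell from 2825 and 3608 to 976 and 1135.

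The list of endoplasmic reticulum chaperones had 16 tested members, among them the transcription factor XBP1, which is not a chaperone. DNAJB9 (by 0.90 ± 0.13) and XBP1 (by 0.53 ± 0.09) fell, and the list median was 0.03. DNAJB9 read 220.1 and 202 at 40 min and 127 and 100.1 at 240 min. XBP1 read 2984 and 3243 at 40 min and 2099.5 and 2221 at 240 min, and 3 members fell under upper-quartile or total-count scaling. With the block within each hairpin 4 fell and 1 rose.

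Mitosis genes fell together. All 27 tested had a log2 difference below 0, 18 passed the test, and the median was -0.57. The count was 12 without 40 min library 1 or 240 min library 2. TOP2A, the topoisomerase of dividing cells, read 3829 and 3949 at 0 min, 3679 and 3523 at 40 min and 2128 and 1729 at 240 min, a fall by 0.91 ± 0.10. KIF23, a kinesin of the central spindle, fell from 2364 and 2198 to 1505 and 1418, ASPM, a spindle pole protein, from 2086 and 2013 to 1271 and 1081, and CENPE, a kinetochore motor, from 945 and 813 to 529 and 498. All 4 genes had both 240 min libraries below every earlier library.

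G1/S and replication genes showed fewer calls, 1 of 27 higher and 2 lower. The falls were near the 7.56% of all genes tested that fell, and the rises under the 8.84% that rose. The rise was CCND3, a D-type cyclin, from 1312 and 1360.0 to 1719.9 and 1853. E2F2 fell from 2689 and 4037 to 1358 and 1652, by 1.14 ± 0.20, a call lost with the 6 shLAD1 libraries alone (adjusted p = 0.0577). MCM2, a helicase subunit, fell from 3516 and 3244 to 2713 and 2485, a call lost without 40 min library 1 (adjusted p = 0.101) or 240 min library 2 (0.119), and with the 6 alone (0.0706). With total-count scaling 5 members fell, and with the block within each hairpin 10 fell and 5 rose.

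The largest late rise was in IL1RL1, the receptor for interleukin-33. It read 5.13 and 12.2 at 0 min, 12.6 and 53.4 at 40 min and 298 and 888 at 240 min. The libraries of each time were far apart but the 40 and 240 min values did not overlap, and the rise was 4.25 ± 0.80 on the log2 scale, 19.0-fold (limma adjusted p = 0.00846). The call was lost without 240 min library 2, with a rise of 3.46 and an adjusted p of 0.0604, and with the 6 shLAD1 libraries alone (0.0551). DHRS9, a retinol dehydrogenase, had the next largest and a tighter one: 69.8 and 63.1, then 62.8 and 65.0, then 529 and 867, a rise of 3.39 ± 0.22 or 10.5-fold (limma adjusted p = 7.93e-05).

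Other large rises were also small or absent at 40 min. CREB5, a transcription factor of the CREB family, went from 40.5 and 30.4 at 40 min to 197 and 257 at 240 min, a rise of 2.65 ± 0.41. PAPPA, a protease that frees insulin-like growth factors, went from 174 and 117 to 813 and 731, a rise of 2.42 ± 0.30. AGPAT9, an enzyme of glycerolipid synthesis, went from 96.5 and 65.0 to 431 and 410.2, a rise of 2.39 ± 0.39. At 0 min CREB5 had read 42.1 and 45.8, PAPPA 129 and 98.7 and AGPAT9 71.9 and 31.5, so most of each rise came after 40 min.

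HAS3, a hyaluronan synthase, read 103 and 203 at 40 min and 524 and 1256 at 240 min, a rise of 2.48 ± 0.53 whose call was lost without 40 min library 1 (adjusted p = 0.0895) or 240 min library 2 (0.0992). PLAT, tissue plasminogen activator, read 12.6 and 17.8 and then 58.3 and 119, a rise of 2.40 ± 0.51 that was lost without the same libraries (0.0701 and 0.0904). In both genes library 2 was the higher at each time. ANGPTL4, a secreted inhibitor of lipoprotein lipase, rose by 2.48 ± 0.63, from 39.6 and 34.6 to 384 and 115. Its 240 min libraries were the least alike of the 12 largest rises, and its call was lost without 40 min library 1 (adjusted p = 0.0938), 40 min library 2 (0.127) or 240 min library 1 (0.129, with a rise of 1.61). RASGEF1A, an exchange factor for RAS proteins, went from 81.1 and 45.1 to 289 and 179, a rise of 1.89 ± 0.39 that was lost without 40 min library 2 (0.0735) or 240 min library 1 (0.0683). With the 6 shLAD1 libraries alone all 4 calls were lost, HAS3 at an adjusted p of 0.0829, PLAT at 0.0575, ANGPTL4 at 0.0680 and RASGEF1A at 0.0656.

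**Figure D3:**
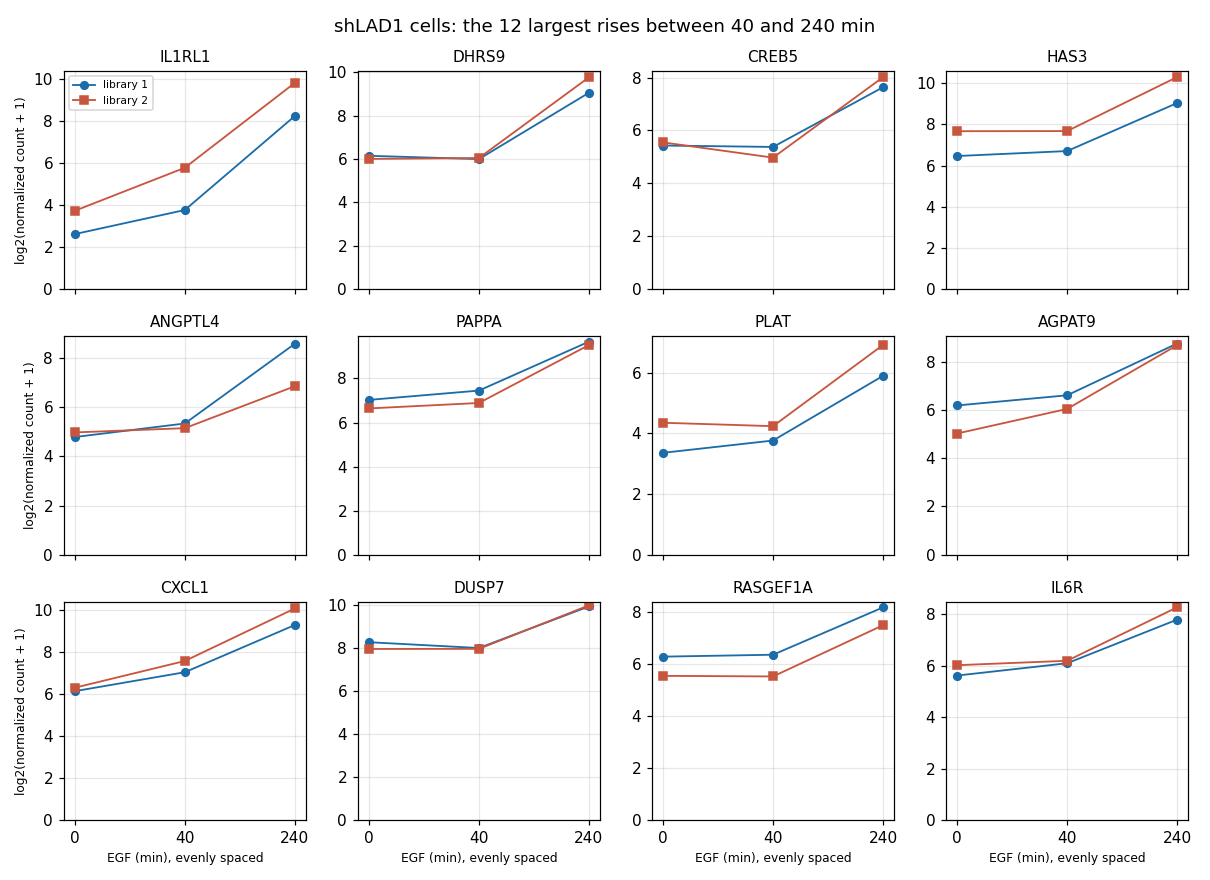
The 12 called genes with the largest rises between 40 and 240 min in shLAD1 cells (mean of at least 50 normalized counts), as log2(normalized count + 1) against 0, 40 and 240 min of EGF, evenly spaced. Each line joins the libraries that share a number; DHRS9 is flat from 0 to 40 min and reaches 529 and 867 at 240 min, and IL1RL1 ends at 298 and 888.

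The list of NF-kB targets and cytokines had 7 of 22 tested higher and 2 lower, with a median of 0.41. The rises numbered 3 without 40 min library 1 or 240 min library 2, 4 with total-count scaling and 11, with 3 falls, with the block within each hairpin. CXCL1, a neutrophil-attracting chemokine, read 69.8 and 78.4, then 131 and 191, then 627 and 1083, a rise of 2.37 ± 0.24 (limma adjusted p = 0.000562). RELB, a subunit of NF-kB, went from 112 and 140.4 to 347 and 620.3, a rise of 1.88 ± 0.26. NFKBIA, the inhibitor that NF-kB induces, dipped from 786 and 791 at 0 min to 564 and 575 at 40 min and then read 985 and 1259.7. TNFAIP2 went the other way, from 5396 and 6138 to 3515 and 3194. IL6R, the interleukin-6 receptor, read 67.6 and 72.3 and then 221 and 308, a rise of 1.89 ± 0.25.

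Ribosome biogenesis genes, which make and process ribosomal RNA in the nucleolus, had the largest share of rises among the gene lists. All 29 tested had a log2 difference above 0, 25 passed the test, and the median was 0.75 against 0.00 for all genes. The count was 19 to 24 without any 1 of the 4 libraries and 24 under total-count scaling. DDX21, a nucleolar helicase, read 1886 and 1745 at 0 min, 2289 and 1915 at 40 min and 4451 and 4272 at 240 min, a rise of 1.06 ± 0.09 (limma adjusted p = 0.000195). DKC1, the pseudouridine synthase dyskerin, went from 2051 and 1843 to 3352 and 3263. WDR43 went from 699 and 674 to 1387 and 1459.8, and NOP56, a core protein of the particles that methylate ribosomal RNA, from 1521 and 1374 to 2605 and 2680.5.

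The genes of ribosomal proteins themselves gave no call with limma, edgeR or DESeq2 among 30 tested, with 5 at an unadjusted limma p under 0.05. Their log2 differences ran from 0.00 to 0.23. With the block within each hairpin 15 of them rose. Their median was 0.10, well under the 0.75 of the biogenesis genes.

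Actin cytoskeleton genes rose in 11 of 32 tested, with a median of 0.23, and in 7 without 240 min library 2. The block within each hairpin gave 25 higher and 1 lower. PDLIM7, a scaffold on actin filaments, went from 1616 and 1518 to 2930.3 and 2902, a rise of 0.90 ± 0.13. ACTR3, of the branching complex ARP2/3, rose by 0.45 ± 0.06, DIAPH1, a formin that elongates filaments, by 0.50 ± 0.07, and WDR1, which aids disassembly, by 0.51 ± 0.08. The rises were small and came with tight libraries, as in WDR1 with 5035 and 5353 at 40 min and 6991 and 7802 at 240 min.

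Filamins cross-link actin, and the series' title ties LAD1 to them. The filamin gene FLNA read 26002 and 24879.6 at 40 min and 36827 and 33794 at 240 min, a log2 difference of 0.47 ± 0.19 with a limma adjusted p of 0.126. It was called with the block, at 0.00867 over both hairpins and 4.44e-05 within each. Each 240 min library was higher than either 40 min library.

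Among integrins, laminins, proteases and matrix receptors 9 of 30 tested rose and 1 fell, with a median of 0.52. The rises numbered 5 without 40 min library 1, 4 without 240 min library 2 and 19, with 3 falls, with the block within each hairpin. ITGA2, the collagen-binding integrin subunit, read 1289 and 1234, then 1357 and 1251, then 3944 and 4265, a rise of 1.65 ± 0.10 (limma adjusted p = 5.76e-05). ITGA3, which binds laminin, went from 2407 and 2989 to 5076 and 5628. CD44, the hyaluronan receptor, went from 4368 and 4184 to 7916 and 7808. The member that fell was TNS3, a tensin that links integrins to actin, from 1716 and 1661 to 1034 and 929.5, while its relative TNS4 rose.

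Glycolysis and hypoxia-type genes rose in 6 of 25 tested and fell in 1, with a median of 0.19, and 4 rose when any 1 of the 4 libraries was left out. ANGPTL4, described above, had the largest of the 6 rises. The fall was in ADM of the first wave (log2 difference -1.20), named after its values were seen. The block gave 10 rises over both hairpins, and 14 with 2 falls within each. The fall was lost without 40 min library 2 or 240 min library 2. HK2, the inducible hexokinase, read 436 and 467, then 485 and 494, then 1472 and 1439, a rise of 1.57 ± 0.09 (limma adjusted p = 5.55e-05). NDRG1 went from 1535 and 1179.8 to 4381 and 3535, a rise of 1.55 ± 0.25. The abundant enzymes changed little: LDHA by 0.39 ± 0.06 and ENO1 by 0.34 ± 0.06, the latter call lost without 240 min library 2 (adjusted p = 0.0508).

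Of 19 retinoid and glycerolipid genes 5 rose, among them DHRS9, AGPAT9, LPIN1 (by 0.51 ± 0.07), a phosphatidate phosphatase, and the lipid droplet protein PLIN2 (by 0.52 ± 0.11). The PLIN2 call was lost without 40 min library 2 (adjusted p = 0.0791) or 240 min library 1 (0.0822), with a list count of 3 without either, and with the 6 shLAD1 libraries alone (0.0547). The list's median was 0.07, with members from -1.24 to 3.39, and the block within each hairpin gave 8 higher and 3 lower. Cholesterol synthesis genes had a median of -0.06. Of 21 tested 2 fell, near the 7.56% of all genes tested that fell, and none rose. The cyclase LSS was among those that fell. With the block 4 fell over both hairpins, and 8 fell and 1 rose within each, and 4 fell with total-count scaling. The LSS fall by 0.56 ± 0.13 was lost without any 1 of the 4 libraries (adjusted p = 0.0519 to 0.0919).

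Clock and glucocorticoid-type regulators split, 5 of 16 lower and 2 higher, with 3 lower without 40 min library 2 or 240 min library 1. The rises numbered 5 with the block over both hairpins and 7 with the block within each, so that the balance of rises and falls depended on the block. PER1, a repressor of the clock, read 139.6 and 138, then 259 and 250.4, then 99.2 and 81.0, a fall by 1.49 ± 0.18. DBP fell from 354 and 416 to 156 and 150.1. On the other side CRY1 rose from 468 and 328 to 781 and 756 and ARNTL, the clock activator, from 210.5 and 221 to 354 and 405.

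In the list of ID, SMAD and TGF-beta response genes 5 of 18 fell and 2 rose, and 6 rose with the block within each hairpin. ID1, an inhibitor of helix-loop-helix factors, read 917 and 1211, then 4148 and 5683, then 1691 and 2003, a fall by 1.40 ± 0.21. The repressors TGIF1 (from 1372 and 1299 to 763 and 654) and SKIL (from 2246 and 2021 to 1511 and 1185) fell as well. The SKIL call was lost with the 6 shLAD1 libraries alone, at a limma adjusted p of 0.0646. SKI, a relative of SKIL, rose from 2030.2 and 1783 to 2991 and 2714. Without 40 min library 1 the falls numbered 3, and 1 rise was left without that library, 240 min library 1 or 240 min library 2.

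Among 20 interferon-stimulated genes IFI44 was called, with a fall by 0.73 ± 0.17 that was lost without 40 min library 1 (adjusted p = 0.0956), 240 min library 1 (0.0515) or 240 min library 2 (0.104), and with the 6 shLAD1 libraries alone (0.0582). This 1 call of 20 was under the 7.56% of all genes tested that fell. With the block, 8 of the 20 fell. Cornified envelope and keratinocyte genes gave no call with limma or edgeR among 25 tested, with 1 from DESeq2, 2 at an unadjusted limma p under 0.05, and a median of 0.43. With the block within each hairpin 10 of the 25 rose and 1 fell.

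The 6 shLAD1 libraries alone gave fewer calls in many of the lists. Falls then numbered 10 for mitosis genes, 5 for ATF4 targets and 0 for G1/S genes. Rises numbered 6 for actin cytoskeleton genes, 5 for integrins and matrix genes, 4 each for feedback inhibitors, NF-kB targets and glycolysis genes, and 2 for SRF, MRTF and YAP targets.

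**Figure D4:**
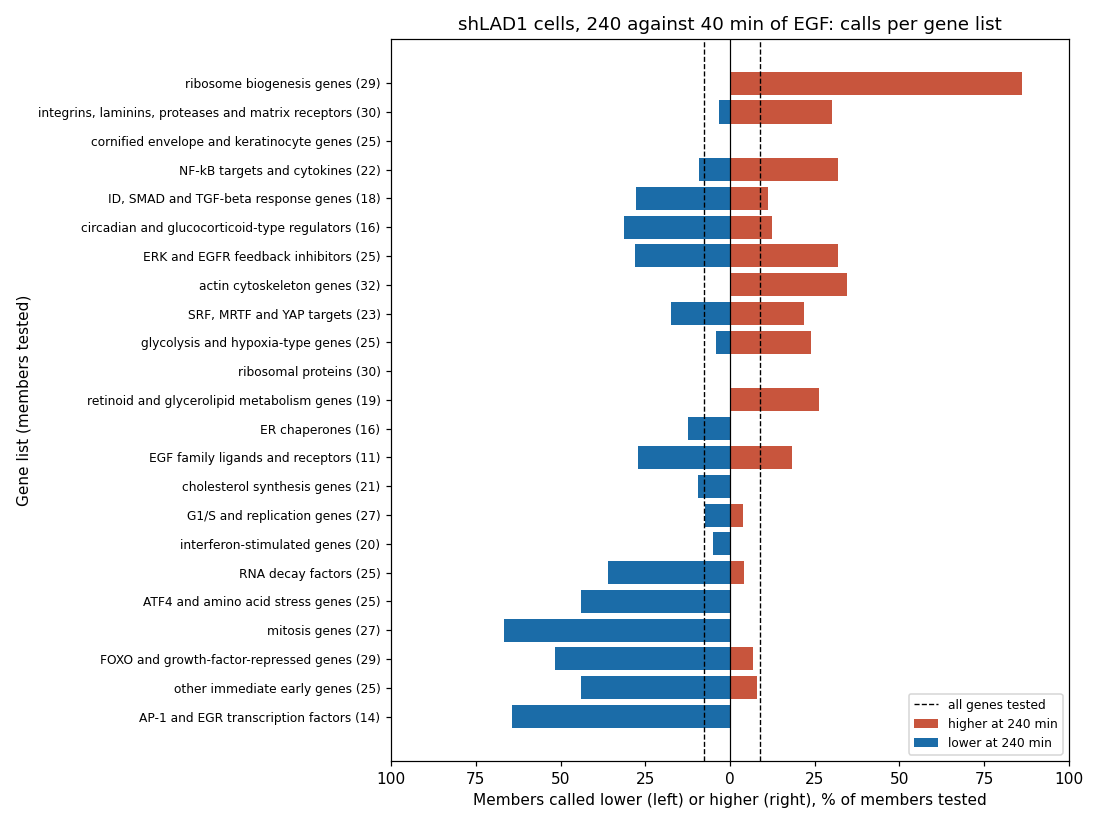
Share of each gene list's tested members (in brackets) that was called lower (left, blue) or higher (right, red) at 240 than at 40 min in shLAD1 cells, with dashed lines at the 7.56% and 8.84% of all genes tested; lists are ordered by their median log2 difference. Ribosome biogenesis has 25 of 29 higher, and mitosis genes 18 of 27 lower.

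LAD1 transcripts rose from 1181 and 971 at 40 min to 2535 and 2297 at 240 min in the knockdown cells, by 1.17 ± 0.13 (limma adjusted p = 0.00089), and so did the control cells from their higher level, by 0.65 ± 0.13. The difference between the changes was 0.53 ± 0.19. It did not pass the main test (limma adjusted p = 0.9999) and passed with the block within each hairpin (adjusted p = 0.000255). At 240 min the knockdown libraries were still below every scramble library.

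The change between 40 and 240 min in shLAD1 cells was then set beside that of scramble cells. The differences share no library. Their calls are not independent, because the spread of each gene in both tests came from all 12 libraries. In scramble cells 1417 genes rose (10.2%) and 1163 fell (8.34%). Of the 1417, 1027 also rose in shLAD1 cells, which is 72.5% of that list and 83.3% of the 1233 shLAD1 rises. Of the 1163, 829 also fell, 71.3% of that list and 78.6% of the 1055 shLAD1 falls. No gene was called in opposite directions. The scramble-rising genes had a median log2 difference of 0.49 in shLAD1 cells and 0.57 in scramble cells, which chose them, and the scramble-falling genes -0.58 and -0.65. Over all 13950 genes the sign was shared by 11470, and the log2 differences had r = 0.83 across genes, which share normalization and are not independent replicates.

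A test of the difference itself called no gene with limma (191 at an unadjusted p under 0.05), edgeR (187) or DESeq2 (91), and none with 1 block term over both hairpins (519). With the block within each hairpin 61 genes (0.437%) differed, 16 with a more positive change in shLAD1 cells and 45 with a more negative one. In 46 of the 61 the change had the same sign under both hairpins, and in 49 the scramble change was the larger in size. The 4 genes with the smallest unadjusted p and a mean of at least 50 normalized counts, SIK1, UBALD2, LINC01578 and SH3RF2, were all among them.

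SIK1, a salt-inducible kinase of the first wave, read 729.8 and 634 at 40 min and 262 and 280.2 at 240 min in shLAD1 cells, and 385 and 326 and then 281 and 332 in scramble cells. The 240 min libraries of both hairpins were close, and the gap lay at 40 min. The fall by 1.33 was not matched in scramble cells (-0.21), and the difference was -1.11 ± 0.23 (limma adjusted p = 0.9999, unadjusted 0.000859, and adjusted p = 0.00546 with the block within each hairpin). UBALD2 differed in opposite directions, from 962 and 946 to 1324 and 1137 in shLAD1 cells and from 1272 and 1473 to 1078 and 1054 in scramble cells, a difference of 0.72 ± 0.16. The shLAD1 part of it, 0.36, was called with the block (adjusted p = 0.0244 over both hairpins and 8.23e-05 within each) and not in the main test. SH3RF2, a ubiquitin ligase, rose by 0.36 and by 0.98, a difference of -0.62 ± 0.15. The shLAD1 rise of SH3RF2 had a limma adjusted p of 0.0463 and was lost without any 1 of the 4 libraries (0.0893 to 0.194), with the 6 shLAD1 libraries alone (0.144), with total-count (0.0864) or upper-quartile scaling (0.0515), without the filter on low counts (0.0722), and in edgeR (0.0506) and DESeq2 (0.0856). LINC01578, a long non-coding RNA, differed by 0.09 in shLAD1 cells and by -0.53 in scramble cells, a difference of 0.62 ± 0.14.

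**Figure D5:**
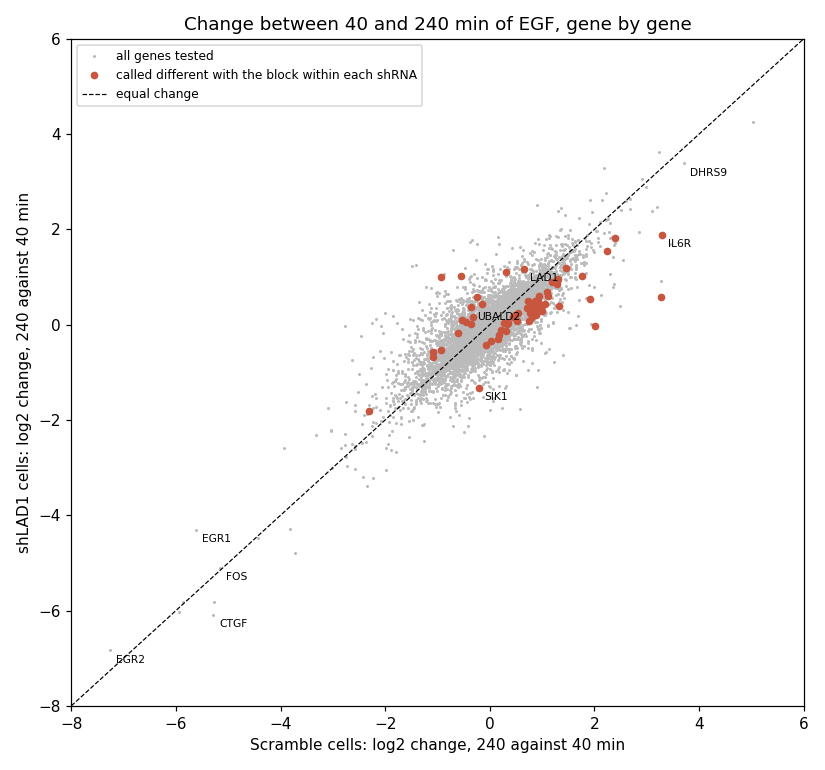
Log2 difference between 240 and 40 min of EGF for each of the 13950 genes tested, in scramble cells (horizontal) and shLAD1 cells (vertical); red circles are the 61 genes called different with the library number as a block within each hairpin, and the dashed line marks equal change. EGR2 and FOS lie close to the line, EGR1 above it, and IL6R below it.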

How the data were processed

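Polyadenylated RNA of 12 HCC70 libraries was sequenced after bead selection, per the labels. STAR, DESeq2 and the hg19 build appear in the submitters' processing notes. No source used here gives the counting tool, annotation or strand setting, so reads of overlapping genes on opposite strands cannot be told apart. The authors deposited 1 table whose signal values are read counts of 26365 genes divided by a size factor per library. Whole reads were recovered from it at 100% of values (tolerance 0.001); library totals were 12428618 to 16721013 reads, and intervals from them would cover counting error only.

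Log2(normalized count + 1) of the 13950 genes that reached 10 normalized counts in 2 or more libraries was fitted with limma 3.58.1 (R 4.3.3, trend and robust) on 6 group means over all 12 libraries, with Benjamini-Hochberg adjustment over all genes tested and a threshold of 0.05. Fold changes are on that log2 scale and understate those of low genes. The code was tested on simulated data.

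Library numbers were not in the main model, so its SE and p-values include the steady difference between libraries 1 and 2. Deviations from group means correlated at 0.645 to 0.734 in 6 pairs of equal number within a hairpin and at 0.247 to 0.307 in 9 pairs across hairpins, so the numbers from the labels pair the libraries, and fits with the number as a block are given where they change a named gene's call or move a list's count over 1.5 times. Other alternatives were a pseudocount of 5, no filter, upper-quartile and total-count scaling, the 6 shLAD1 libraries alone, edgeR 4.0.16 and DESeq2 1.42.0 on the recovered reads, and leaving out each library. Within groups, a chi-square of the reads over its degrees of freedom was 8.59 to 21.3, above sampling noise.

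Members and gene lists were chosen with earlier results of these data known. Named genes are the 12 largest falls and 12 largest rises among called genes (mean at least 50, groups apart), up to 4 called members per list, the 12 first-wave genes with the largest scramble rise, the 4 smallest unadjusted p for the difference between hairpins, and LAD1, EGFR, FLNA, FOS, EGR1, DUSP1, DUSP6, HBEGF and AREG. A few other genes are not reported here. Promoter shares are not given for the first wave, where under 80% of genes had a promoter, and those for all genes tested (78.7% with one) are given as values only.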

Additional observations from a re-analysis of the deposited data

Results flagged for a closer look

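For 8 of the 103 named genes the change between 40 and 240 min differed between shLAD1 and scramble cells. The test was that of the difference with the library number as a block within each hairpin, which 61 of 13950 genes (0.437%) passed. SIK1, UBALD2, LINC01578 and SH3RF2 were named for a small p of this same difference, so their place among the 8 is no separate result. None of the 8 passed the main limma test (adjusted p = 0.9999 for each), so each call rests on pairing the libraries by number. The main test leaves that pairing out, and its SE includes the steady difference between libraries 1 and 2. For LAD1 the SE of the difference was 0.190 in the main fit and 0.068 with the block within each hairpin. The values are shLAD1 minus scramble on the log2 scale, with the SE of the main fit and the adjusted p of the blocked limma fit.

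Smaller late rises in shLAD1 cells were seen for IL6R (-1.40 ± 0.36, adjusted p = 0.00763), NDRG1 (-0.70 ± 0.36, 0.0166) and SH3RF2 (-0.62 ± 0.15, 0.0191), all 3 with both shLAD1 pairs below both scramble pairs. IL6R rose by 1.69 and 2.08 in the shLAD1 pairs and by 3.07 and 3.50 in the scramble pairs. SIK1 fell further in shLAD1 cells (-1.11 ± 0.23, 0.00546), with pair differences of -1.47 and -1.18 against -0.45 and 0.02.

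TSC22D3 fell less in shLAD1 cells (0.51 ± 0.18, adjusted p = 0.00733), by 1.65 and 1.96 against 2.34 and 2.28. LAD1 rose more (0.53 ± 0.19, 0.000255), by 1.10 and 1.24 against 0.65 and 0.64. UBALD2 (0.72 ± 0.16, 0.000255) rose in both shLAD1 pairs, by 0.46 and 0.26, and fell in both scramble pairs, by 0.24 and 0.48. LINC01578 (0.62 ± 0.14, 0.0082) read 0.19 and -0.0047 against -0.45 and -0.61.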

How the results depend on the processing

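The 2 libraries per time limit the precision. Of 13950 genes tested, 1233 rose and 1055 fell. These counts became 2131 and 1873 with the replicate block over both hairpins, 3259 and 2959 with the replicate block within each hairpin and 476 and 381 with the 6 shLAD1 libraries alone, and ran from 552 to 848 and from 534 to 754 with a library left out. First-wave falls stayed at 55 to 80 under all alternatives against 71, and first-wave rises were 21 with the replicate block within each hairpin and 5 with the 6 libraries alone against 8. Of the scramble-rising genes 455 rose with the 6 libraries alone and 518 to 742 with a library left out, against 1027. Of the scramble-falling genes 362 and 456 to 610 fell, against 829. Genes that differed between hairpins numbered 61 with the replicate block within each hairpin and 0 under the other alternatives that could be run; the 6 shLAD1 libraries alone cannot give this test. The cause of these differences was not tested, apart from the fewer libraries in the fits that leave some out. With a library left out, the shLAD1 difference of LINC01578 ran from -0.040 (40 min library 1, adjusted p = 0.837) to 0.23 (40 min library 2).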
